A study of Mus musculus with 13 samples.

Results

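Activins are dimers of the inhibin beta chains, and 9 genes of this system were followed in 13 primary cultures of neonatal mouse dermal fibroblasts. They were taken by name from a list of 25655 measured genes and comprised 3 ligand genes (Inhba, Inhbb and Gdf11), 3 follistatin-type genes (Fst, Fstl1 and Fstl3) and 3 receptor genes (Acvr1b, Acvr2a and Acvr2b). All 9 were found in every table. The study asked whether homozygosity for the G234D allele of Fbn1, the gene of fibrillin-1, changes skin fibroblasts themselves, in particular their matrix genes. Wild-type (WT) cultures numbered 4 in set 1 (W1 to W4) and 2 in set 2 (W5 and W6), and Fbn1 G234D/G234D cultures 4 in set 1 (M1 to M4) and 3 in set 2 (M5 to M7). The homozygous cultures are called G234D below. Each culture came from the skin of a neonatal mouse and received no treatment, and strain, sex and passage are not stated in the sources used here.

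Activins A and B, encoded by Inhba and Inhbb, and GDF11, a close relative of myostatin, bind a type II receptor (Acvr2a or Acvr2b), which then engages a type I receptor such as ALK4, the product of Acvr1b. The active receptors phosphorylate Smad2 and Smad3, which enter the nucleus with Smad4. Follistatin (Fst) and the follistatin-like protein of Fstl3 wrap around the ligands in the extracellular space and block receptor binding. Fibroblasts of the skin make activin A, and activin is known for its part in wound repair and scarring of the skin.

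The values were TPM, a unit of transcript abundance scaled to gene length and library total, so levels of different genes can be set side by side, and the read depth behind each value is unknown. A library had 11741 to 12042 genes at 1 TPM or above. The 10 fibroblast markers examined were each at 1 TPM or more in every culture, and their summed level was 23792 to 34909 TPM. M1 and M2 had the 2 lowest sums, at 23792 and 26055 TPM, with W4 next at 26236 TPM. The titles of set 1 carry animal numbers in 2 runs. The lower run held W1, M1, M2 and W2, with the number of W1 far from the other 3, and the higher run held M3, M4, W3 and W4. No label calls the runs batches. M1 and M2 stood apart from the other 11 cultures in markers of other cell types. The summed level of 12 skeletal muscle markers was 326 and 273 TPM in M1 and M2 against 64.0 to 153 TPM in the other cultures of set 1 and 74.1 to 116 TPM in set 2, and that of 10 Schwann cell and melanocyte markers was 129 and 131 TPM against 23.7 to 47.1 and 23.2 to 31.0 TPM. In these bulk samples, fewer cells of a type and less RNA per cell cannot be told apart.

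Fstl1, which encodes a secreted glycoprotein with a follistatin domain, had by far the highest level of the 9 genes, at 1593 ± 82.0 TPM (SD, n = 13 cultures). Inhba followed at 126 ± 20.6 TPM, and its lowest culture lay above the highest culture of any of the remaining 7 genes. Inhbb (67.8 ± 9.92 TPM), Fstl3 (55.9 ± 6.90 TPM) and Acvr2a (51.6 ± 4.84 TPM) formed a middle group, in which the ranges over cultures of neighbouring genes overlapped. Gdf11 (23.9 ± 5.21 TPM), Fst (21.0 ± 4.38 TPM) and Acvr1b (14.7 ± 1.23 TPM) came next, again with overlap between neighbours. Acvr2b had the lowest level, at 1.09 ± 0.249 TPM, and its highest culture was far below the lowest culture of Acvr1b. Among the other ligand genes listed for this system, Inha, the alpha chain of inhibin, was the only one besides the 3 members to be tested, at 2.68 to 5.89 TPM. Mstn, which encodes myostatin, reached at most 0.475 TPM, and Inhbc was listed at 0 in every culture.

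**Figure D1:**
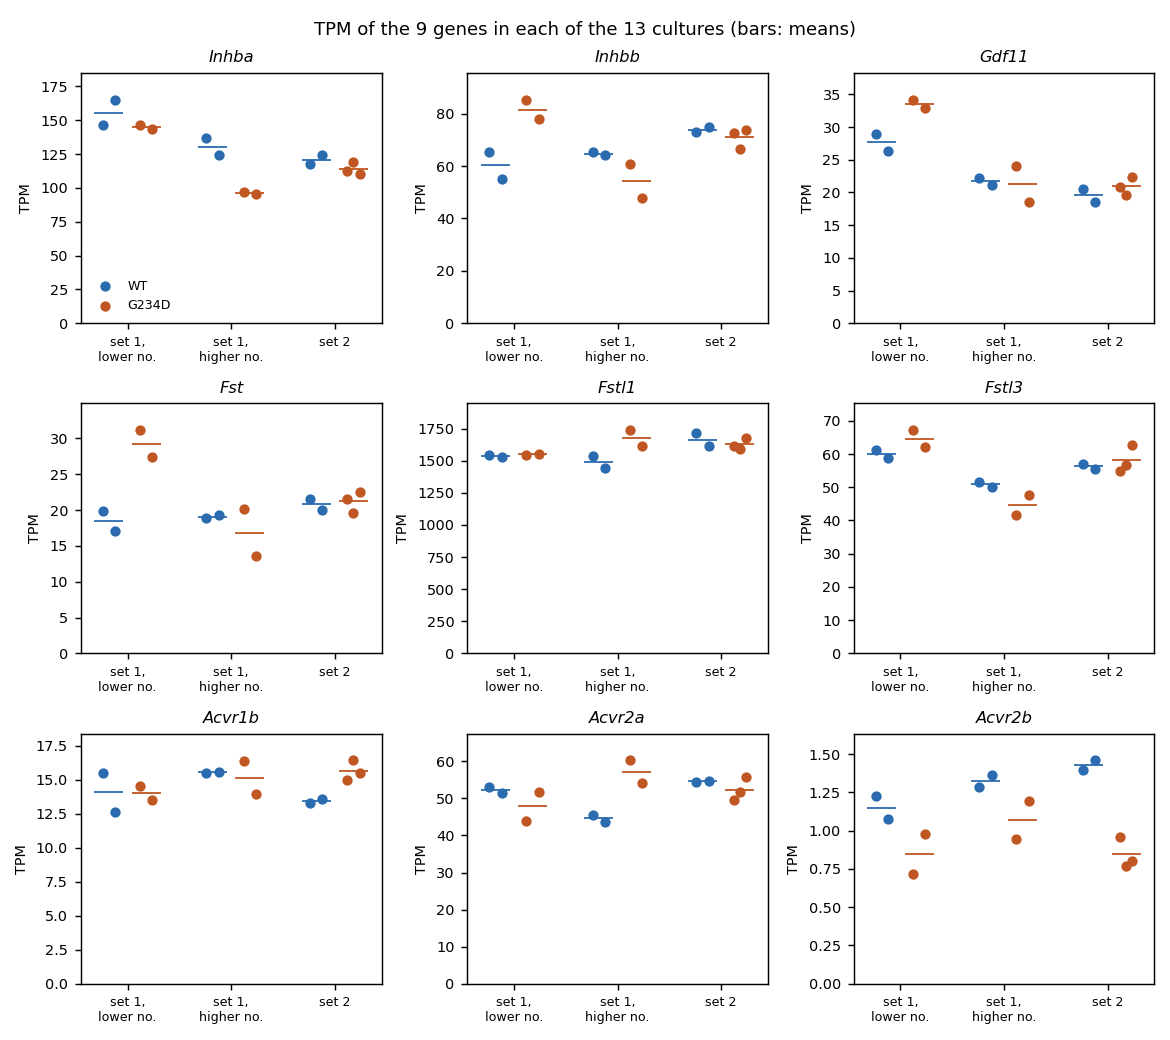
TPM of the 9 genes (y axis, from 0, a scale for each gene) in each of the 13 cultures, by run of animal numbers in set 1 and in set 2 (x axis); blue points are WT, orange points G234D, and horizontal bars are means. Acvr2b in the bottom right panel has every G234D point under the WT points of its own run or set, between 0.719 and 1.20 TPM, while the other panels mix the genotypes in at least 1 of the 3 groups.

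None of the 9 genes passed the test between the genotypes over both sets (0.0% of the 11942 genes tested were called at an adjusted p under 0.05; limma with Benjamini-Hochberg adjustment). At an unadjusted p under 0.05 stood 1 of the 9, Acvr2b, against 6.44% of all genes tested. Acvr2b entered the genes tested through the WT cultures, where it was higher, so nothing is read from this count. The 9 log2 differences, G234D minus WT on the log2(TPM + 1) scale, had a median of 0.05 beside 0.01 over all genes tested, with 6 above 0 and 3 below. Within set 1 the test called 0 of the 9 (0.0% of 11905 genes were called, and 1 gene, not a member, with the replicate numbers as a block), and 0 of the 9 had an unadjusted p under 0.05 against 6.06% of all genes tested. Within set 2 it also called 0 of the 9 (0.00829% of 12060 genes were called), and 2 of the 9, Acvr1b and Acvr2b, had an unadjusted p under 0.05 against 6.48%. Acvr2b entered through the WT cultures in set 2 as well, so nothing is read from that count either. The difference between the sets in the genotype effect was tested as well, and 0 of the 9 were called (0.0%) with 0 at an unadjusted p under 0.05 (5.79% of all genes tested). Each culture counts as 1 replicate from 1 animal, as far as the labels tell.

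**Figure D2:**
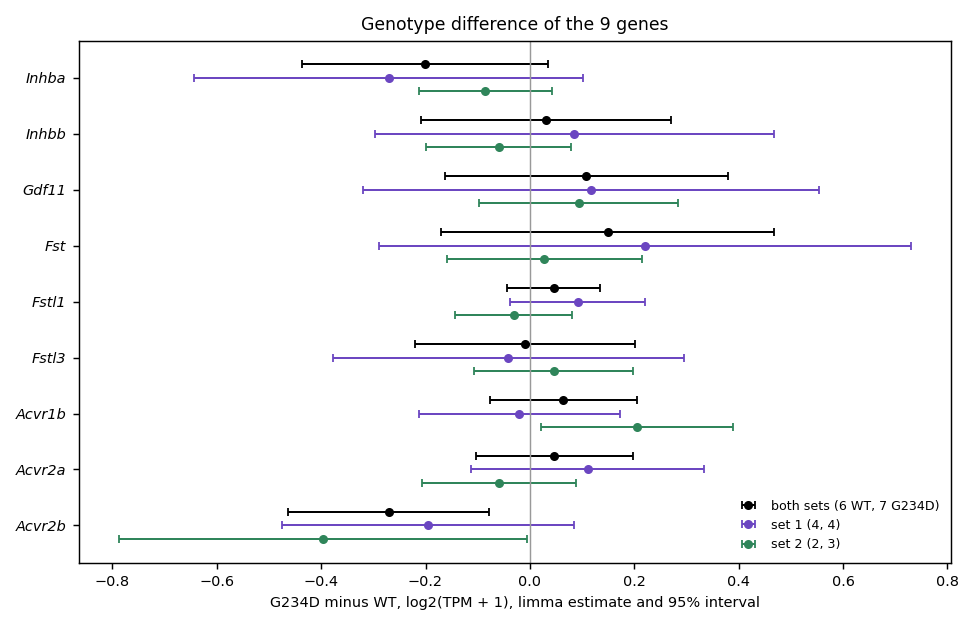
Difference between the genotypes, G234D minus WT, on the log2(TPM + 1) scale (x axis) for each of the 9 genes (y axis), with points for the limma estimate and bars for its 95% interval, over both sets (black), in set 1 (violet) and in set 2 (green). The bars cross 0 for every gene and comparison apart from Acvr2b over both sets and in set 2 and Acvr1b in set 2, and none of these 3 passed after adjustment.

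Among the ligands, Inhba was at 146, 165, 136 and 125 TPM in W1 to W4 and at 146, 143, 96.6 and 95.3 TPM in M1 to M4. In set 2 it was at 118 and 124 TPM in W5 and W6 and at 112, 119 and 111 TPM in M5 to M7. M3 and M4 had the lowest values of all cultures, and both G234D cultures lay below both WT cultures in the lower run (as in 30.2% of genes) and in the higher run (18.4%). In the lower run M1 lay next to W1, at 146.18 and 146.44 TPM. The genotypes overlapped in set 1 as a whole and in set 2. The WT mean was 136 ± 17.6 TPM (SD, n = 6) and the G234D mean 118 ± 20.4 TPM (SD, n = 7). The log2 difference over both sets was −0.20 (95% interval −0.44 to 0.04; limma, Benjamini-Hochberg adjusted p = 0.867). With the runs as a covariate, the unadjusted p was 0.00287 and the adjusted p 0.373.

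Inhbb was at 65.4, 55.2, 65.3 and 64.2 TPM in W1 to W4 and at 85.2, 77.9, 60.6 and 47.7 TPM in M1 to M4. Set 2 gave 73.1 and 74.8 TPM in W5 and W6 and 72.5, 66.6 and 73.7 TPM in M5 to M7. M1 and M2 were the highest of all 13 cultures and M4 the lowest, so the G234D cultures of set 1 spanned the whole range. The log2 difference over both sets was 0.03 (95% interval −0.21 to 0.27; limma, Benjamini-Hochberg adjusted p = 0.978), and it was −0.14 without M1 and M2.

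Gdf11 was at 29.0, 26.3, 22.2 and 21.2 TPM in W1 to W4 and at 34.1, 32.9, 24.0 and 18.6 TPM in M1 to M4. The 5 cultures of set 2 lay between 18.6 and 22.4 TPM, with W5 and W6 at 20.6 and 18.6 TPM inside or just under the range of M5 to M7. The log2 difference over both sets was 0.11 (95% interval −0.16 to 0.38; limma, Benjamini-Hochberg adjusted p = 0.924) and became −0.06 without M1 and M2. The cultures of the lower run, not those of 1 genotype, held the 4 highest values of Gdf11.

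Among the binding proteins, Fst was at 19.9, 17.0, 18.9 and 19.2 TPM in W1 to W4 and at 31.1, 27.4, 20.2 and 13.5 TPM in M1 to M4. It was at 21.6 and 20.0 TPM in W5 and W6 and at 21.6, 19.6 and 22.5 TPM in M5 to M7. The 6 WT cultures stayed between 17.0 and 21.6 TPM, and the G234D cultures of set 1 lay on both sides of them. The log2 difference over both sets was 0.15 (95% interval −0.17 to 0.47; limma, Benjamini-Hochberg adjusted p = 0.920), and it was −0.08 without M1 and M2. Fst had the widest spread of the 9 genes, with an SD of 0.28 for log2(TPM + 1) less the mean of the set, beside a median SD of 0.11 over all genes tested.

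Fstl3 was at 61.1, 58.9, 51.5 and 50.2 TPM in W1 to W4 and at 67.2, 62.1, 41.7 and 47.5 TPM in M1 to M4. In set 2 it ranged from 55.0 to 62.7 TPM, and W5 and W6, at 56.9 and 55.6 TPM, lay within the range of M5 to M7. The genotypes overlapped in both sets, and the log2 difference over both sets was −0.01 (95% interval −0.22 to 0.20; limma, Benjamini-Hochberg adjusted p = 0.995). Fstl1 had the narrowest spread of the 9 genes, with a set-centred SD of 0.06. It was 1439.7 to 1544.5 TPM in the WT cultures of set 1 and 1545.7 to 1736.9 TPM in the G234D cultures, so these groups did not overlap, though M1 lay next to W1. Groups that did not overlap with G234D higher were found for 1.96% of genes in set 1, and Fstl1 was the 1 of the 9 for which this held in either direction (4.15% of genes). In set 2 the order was not the same, with 1713.0 and 1613.4 TPM in W5 and W6 and 1591.9 to 1679.3 TPM in M5 to M7, and the log2 difference over both sets was 0.05 (limma, Benjamini-Hochberg adjusted p = 0.916).

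The receptor gene Acvr2b was lower in G234D than in WT cultures in each run of set 1 and in set 2, without passing the test. It was at 1.23, 1.07, 1.29 and 1.37 TPM in W1 to W4 and at 0.719, 0.977, 0.948 and 1.20 TPM in M1 to M4. In set 2 it was at 1.39 and 1.46 TPM in W5 and W6 and at 0.958, 0.772 and 0.805 TPM in M5 to M7. The G234D cultures lay below the WT cultures without overlap in the lower run, in the higher run and in set 2, while in set 1 as a whole M4 lay above W2. Acvr2b reached 1 TPM in all 6 WT cultures and in 1 of 7 G234D cultures, so it passed the filter of 1 TPM through the WT cultures. Groups without overlap in all 3 and lower in G234D were found for 0.427% of the genes that passed (1.31% in either direction), and all 7 G234D cultures lay below the WT mean of their set for 1.37%, as for Acvr2b. Because of the way Acvr2b entered these genes, the shares are given as background and nothing is read from them. The WT mean was 1.30 ± 0.138 TPM (SD, n = 6) and the G234D mean 0.911 ± 0.162 TPM (SD, n = 7), and the ratio of G234D to WT was 0.737 in the lower run, 0.809 in the higher run and 0.592 in set 2.

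The log2 difference of Acvr2b over both sets was −0.27 (95% interval −0.46 to −0.08) with an unadjusted p of 0.00921 and a Benjamini-Hochberg adjusted p of 0.742 (limma), so it did not pass. The interval and the unadjusted p are given as description, since Acvr2b entered the genes tested through the WT cultures. With a pseudocount of 0.1 in place of 1 the difference was −0.48. With no filter on low values its adjusted p was 0.689. The 2 type II receptor genes had unequal levels: Acvr2a exceeded Acvr2b 32.0-fold to 48.0-fold in WT and 45.3-fold to 69.4-fold in G234D cultures.

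Acvr2a, the other type II receptor gene, was at 53.2, 51.5, 45.6 and 43.6 TPM in W1 to W4 and at 44.0, 51.7, 60.3 and 54.2 TPM in M1 to M4. It was at 54.5 and 54.7 TPM in W5 and W6 and at 49.7, 51.7 and 55.9 TPM in M5 to M7. M3 had the highest and W4 the lowest value, and the genotypes overlapped in both sets (log2 difference over both sets 0.05, limma, Benjamini-Hochberg adjusted p = 0.939). Acvr1b, the type I receptor gene, was 12.6 to 15.6 TPM in WT and 13.5 to 16.4 TPM in G234D cultures of set 1. In set 2 it was at 13.2 and 13.6 TPM in W5 and W6 and at 15.0, 16.4 and 15.5 TPM in M5 to M7, without overlap, as were 16.6% of genes in that direction. Its log2 difference was 0.21 in set 2 (unadjusted p = 0.0320; limma, Benjamini-Hochberg adjusted p = 0.750) and −0.02 in set 1 (adjusted p = 0.986).

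The balance of ligand and binding protein was described by ratios of TPM within each culture. Inhba exceeded Fst 5.45-fold to 9.69-fold in WT and 4.70-fold to 7.05-fold in G234D cultures, with W2 highest and M1 lowest. Inhba exceeded Inhbb in every culture, from 1.50-fold in M7 to 2.99-fold in W2. Fstl3 exceeded Fst in every culture, from 2.07-fold in M3 to 3.52-fold in M4. M3 and M4, alike in genotype and run, marked both ends of that range.

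Between the runs of animal numbers in set 1, 3 of the 9 genes were called. Inhba, Gdf11 and Fstl3 were lower in the higher run and passed the test with genotype as a covariate, which makes 3 of the 9 called lower against 4.35% of all genes tested, and 7.14% called in either direction (850 genes, or 2037 with the replicate numbers as a block). Inhba averaged 150.2 ± 9.89 TPM in the lower run and 113 ± 20.6 TPM in the higher run (SD, n = 4 each), with a log2 difference of −0.42 (SE 0.07; limma, Benjamini-Hochberg adjusted p = 0.0218). Gdf11 averaged 30.6 ± 3.59 and 21.5 ± 2.24 TPM, with a log2 difference of −0.49 (SE 0.09; limma, Benjamini-Hochberg adjusted p = 0.0251). Fstl3 averaged 62.3 ± 3.51 and 47.7 ± 4.35 TPM, with a log2 difference of −0.38 (SE 0.07; limma, Benjamini-Hochberg adjusted p = 0.0241). In each of these 3 genes every culture of the higher run lay below every culture of the lower run, as in 9.77% of genes in that direction.

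The other 6 genes were not called between the runs. Fst had a log2 difference of −0.37 (limma, Benjamini-Hochberg adjusted p = 0.267) and Inhbb of −0.24 (adjusted p = 0.353), and the 3 receptor genes lay between 0.01 and 0.14. At an unadjusted p under 0.05 stood the same 3 of the 9 genes, against 26.7% of all genes tested. The median over the 9 genes was −0.24 beside −0.02 over all genes tested. Among WT cultures alone the ratio of the higher to the lower run was 0.839 for Inhba, 0.785 for Gdf11 and 0.848 for Fstl3, and among G234D cultures it was 0.663, 0.635 and 0.691. Without M1 and M2 all 3 kept the sign at −0.25, −0.33 and −0.23 and lost the call (limma, Benjamini-Hochberg adjusted p = 0.278, 0.366 and 0.326), and the number of genes called over the whole table went from 850 to 13. Leaving out M1 alone or M2 alone also ended the 3 calls (adjusted p from 0.0605 to 0.0970), leaving out M3 ended that of Inhba (0.0508) and leaving out W1 that of Gdf11 (0.0542). With no filter on low values, Gdf11 and Fstl3 were not called either (0.0514 and 0.0510). The part of the muscle and Schwann cell markers of M1 and M2 in these differences was not tested.

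The 3 genes called between the runs were chosen here by that call, not by a shared pattern over the cultures. The 250 bases before their RefSeq start sites are shown. They were read from RefSeq on GRCm38.p6, 5′ to 3′ on the strand of the gene, and an entry was found for 8 of the 9 genes, all but Fst. Capitals mark matches on either strand to the motifs searched. The Smad box was searched as CAGAC. The AP-1 site was searched as TGANTCA, and the cAMP response element as TGACGTCA. The TATA box was searched as TATAAA, and the GC box of Sp1 as GGGCGG. The CArG box was searched under its usual consensus. Inhba (chr13:16011601-16011850, plus strand), Gdf11 (chr10:128891719-128891968, minus strand) and Fstl3 (chr10:79777024-79777273, plus strand) read as follows.
Inhba: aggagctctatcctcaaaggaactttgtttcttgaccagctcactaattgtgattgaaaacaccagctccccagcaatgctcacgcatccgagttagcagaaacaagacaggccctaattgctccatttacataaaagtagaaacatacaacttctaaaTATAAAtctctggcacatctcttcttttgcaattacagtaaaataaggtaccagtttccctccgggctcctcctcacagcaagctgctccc
Gdf11: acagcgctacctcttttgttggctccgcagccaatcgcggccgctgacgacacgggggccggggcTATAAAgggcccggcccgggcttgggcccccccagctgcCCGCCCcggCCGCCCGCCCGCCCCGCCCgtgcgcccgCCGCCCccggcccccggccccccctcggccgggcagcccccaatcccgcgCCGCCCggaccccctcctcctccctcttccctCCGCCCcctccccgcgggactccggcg
Fstl3: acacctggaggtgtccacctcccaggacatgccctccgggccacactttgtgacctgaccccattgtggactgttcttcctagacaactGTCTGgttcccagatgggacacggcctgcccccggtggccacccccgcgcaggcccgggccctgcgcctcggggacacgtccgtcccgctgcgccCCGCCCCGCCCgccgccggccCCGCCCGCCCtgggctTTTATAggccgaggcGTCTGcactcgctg
Each of the 3 windows held 1 match to TATAAA, which 12.4% of 32851 windows of this length held, and the windows of the other 5 members held 0. The match ended 86 bases before the start site in Inhba, 180 in Gdf11 and 24 in Fstl3. Its place was thus not shared, and nothing is read from its presence in the 3 windows. Gdf11 held 8 matches to GGGCGG and Fstl3 4, some overlapping their neighbours, and Inhba 0 (32.7% of windows held one). Inhbb, Fstl1, Acvr1b, Acvr2a and Acvr2b held 1, 2, 4, 2 and 3 matches to GGGCGG. Fstl3 held 2 matches to CAGAC, and Inhba and Gdf11 held 0 (42.2% of windows). Acvr2a and Acvr2b held 1 match each to CAGAC, and Inhbb, Fstl1 and Acvr1b held 0. The AP-1 site (6.7% of windows), the cAMP response element (1.5%) and the CArG box (1.5%) had no match in Inhba, Gdf11 or Fstl3. The G and C content was 43.2% in Inhba, 81.2% in Gdf11 and 71.2% in Fstl3, beside a median of 52.4% over all windows. A match of letters is a description of the window and not evidence of binding.

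**Figure D3:**
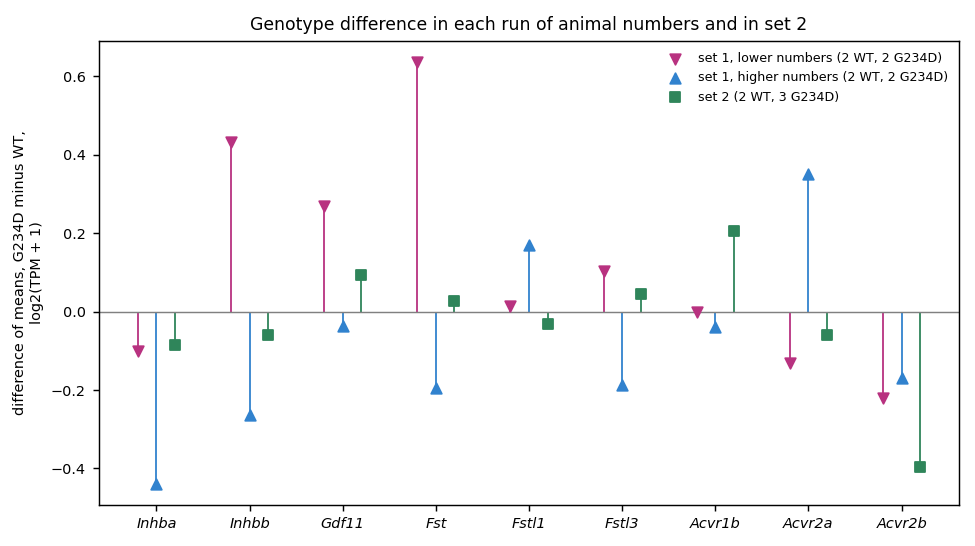
Difference of the means, G234D minus WT, on the log2(TPM + 1) scale (y axis) for the 9 genes (x axis) in the lower run of set 1 (pink triangles pointing down), the higher run of set 1 (blue triangles pointing up) and set 2 (green squares). Fst goes from 0.64 in the lower run to −0.19 in the higher run and 0.03 in set 2, and Acvr2b lies below 0 in all 3. The G234D cultures of the lower run are M1 and M2.

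The difference between the genotypes pointed in different directions in the 2 runs for some members, and none of the 9 passed the test of that change. The G234D cultures of the lower run were M1 and M2. For any gene, a change of the genotype difference between the runs thus cannot be told apart from what set these 2 cultures apart. Fst in G234D exceeded WT in the lower run (ratio of mean TPM 1.58) and lay below it in the higher run (0.884), and the ratio was 1.02 in set 2. Inhbb gave 1.35, 0.837 and 0.960 in the same order. Acvr2a went the other way, at 0.914, 1.28 and 0.960. The change in the log2 difference from the lower to the higher run was −0.83 for Fst (limma, Benjamini-Hochberg adjusted p = 0.107), −0.70 for Inhbb (adjusted p = 0.0680) and 0.48 for Acvr2a (adjusted p = 0.0620). It called 0 of the 9 genes against 2.81% of all genes tested (334 genes, or 189 with the replicate numbers as a block), and 5 of the 9 had an unadjusted p under 0.05 against 20.1%.

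No member was called on this change in the main fit, but some passed under other settings or without single cultures. With the replicate numbers as a block, Inhbb had an adjusted p of 0.0489, and with median-of-ratios scaling 0.0460. Without M3 the adjusted p was 0.00927 for Inhbb, 0.00414 for Fst and 0.0395 for Gdf11, and Acvr2a passed without M2 (0.0334) and without M4 (0.0442).

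**Figure D4:**
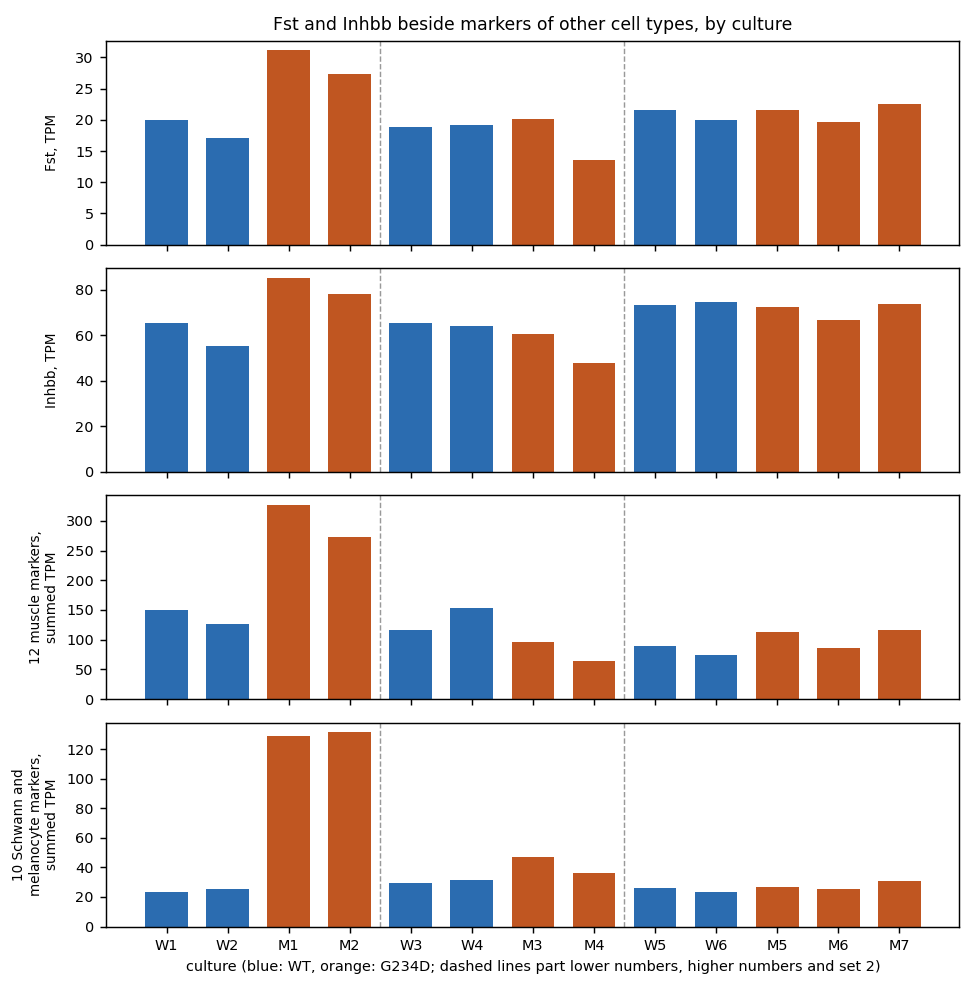
TPM of Fst and of Inhbb and the summed TPM of 12 skeletal muscle markers and of 10 Schwann cell and melanocyte markers (4 panels, y axes from 0) in each culture (x axis; blue WT, orange G234D; dashed lines part the lower run, the higher run and set 2). M1 and M2 have the highest bar in all 4 panels, with 31.1 and 27.4 TPM for Fst beside 326 and 273 TPM for the muscle markers.

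M1 and M2, which had the 2 highest levels of Fst, Inhbb and Gdf11, also had the highest value of 11 of the 12 muscle markers between them. Myog, a transcription factor of differentiating muscle cells, was at 33.9 and 23.5 TPM in M1 and M2 and at most 6.79 TPM in the other 11 cultures. Pax7, which marks muscle stem cells, reached at most 0.278 TPM in any culture, and Acta1, the most abundant of the 12, made up 191 of 326 TPM in M1. Of the 12 muscle markers, 4 were at 1 TPM or more in every culture. The 10 macrophage and leukocyte markers summed to 60.6 and 86.6 TPM in M1 and M2, to 15.7 to 36.7 TPM in the rest of set 1 and to 42.0 to 72.0 TPM in set 2. None of the markers of these 3 cell types was at 0 in every culture, and their part in the levels of Fst and Inhbb was not tested.

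Across the 13 cultures, Fst and Inhbb had the most similar pattern of any pair of the 9 genes, with a Pearson r of 0.962 for log2(TPM + 1) less the mean of the set. Gdf11 followed Fst (0.867) and Fstl3 (0.801), Inhba followed Fstl3 (0.790), and Fstl1 followed Acvr2a (0.794). These values describe the same 13 libraries, in which M1 and M2 are extreme, and carry no test. The genes most like Fst over the whole table were Gprc5b (0.971), Mylpf (0.963), Inhbb, Raet1d (0.957) and Des (0.957), where Mylpf encodes a light chain of fast muscle myosin and Des the muscle filament protein desmin. Those most like Gdf11 were Nid1 (0.986), Bmpr1b (0.983), Pea15a (0.983), Msi2 (0.983) and Rusc2 (0.981). Those most like Inhba were Actn4 (0.955), Snx7 (0.948), Pakap_3 (0.943), Hspb1 (0.942) and Coro1c (0.942), where Actn4 and Coro1c encode proteins of the actin cytoskeleton.

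**Figure D5:**
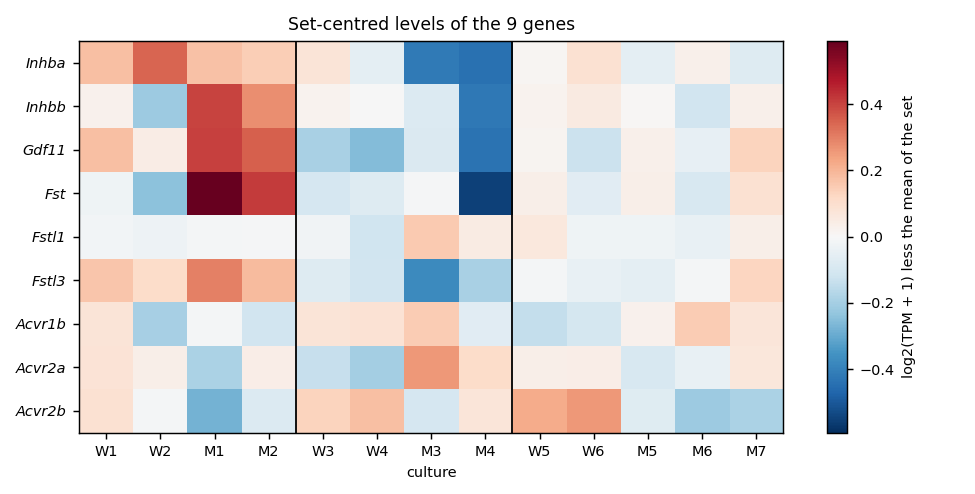
Heat map of log2(TPM + 1) less the mean of the set (colour, red above and blue below) for the 9 genes (rows) in the 13 cultures (columns; vertical lines part the lower run, the higher run and set 2). M1 and M2 are red for Inhbb, Gdf11, Fst and Fstl3, M4 is blue for Inhba, Inhbb, Gdf11, Fst and Fstl3, and set 2 has its strongest colours for Acvr2b.

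The rest of the pathway was read from lists of ligands, secreted binders, receptors, proprotein-processing enzymes, Smad-branch genes and Smad2/3 response genes, with 4 of 10, 4 of 9, 7 of 10, 6 of 7, 11 of 12 and 15 of 15 listed genes tested. None of these genes was called between the genotypes over both sets. The smallest p among them was that of Pmepa1, a feedback inhibitor induced by Smad signalling, with a log2 difference of −0.13 (unadjusted p = 0.000922; limma, Benjamini-Hochberg adjusted p = 0.696). It was at 150.2, 163, 162 and 155 TPM in W1 to W4 and 143, 142, 146 and 149 TPM in M1 to M4, so the groups did not overlap in set 1 (2.19% of genes in that direction). In set 2 it was at 212 and 231 TPM in W5 and W6 and 203, 199 and 192 TPM in M5 to M7, again without overlap (7.02% of genes). Furin, the protease that cleaves activin precursors, had a log2 difference of −0.12 (unadjusted p = 0.00713, adjusted p = 0.742, limma). For Furin it was −0.17 in set 1 and −0.02 in set 2, where the genotypes overlapped. The change of Furin between the sets was not called (limma, Benjamini-Hochberg adjusted p = 0.851). Lefty1, a secreted antagonist of Nodal, had a log2 difference over both sets of 0.24 (unadjusted p = 0.0113, adjusted p = 0.742). Col7a1, the collagen of anchoring fibrils, had one of −0.28 (unadjusted p = 0.0329, adjusted p = 0.752). The sets differed in direction for Col7a1, at −0.57 in set 1 and 0.19 in set 2, so its pooled value describes neither set. That change between the sets was not called (limma, Benjamini-Hochberg adjusted p = 0.386). The response genes had a median of −0.04 beside 0.01 over all genes tested, with 2 of 15 at an unadjusted p under 0.05, against 6.44% of all genes tested.

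Between the runs, 4 of the 15 response genes were called, against 7.14% of all genes tested. Acta2 and Tagln, which encode contractile proteins of smooth muscle and myofibroblasts, were lower in the higher run, as Inhba was, with log2 differences of −0.40 and −0.34 (limma, Benjamini-Hochberg adjusted p = 0.0176 and 0.0292). Nuak1, a kinase gene, fell by 0.27 on the log2 scale (adjusted p = 0.0326), and Junb, a subunit gene of AP-1, named here after its values were seen, rose by 0.48 (adjusted p = 0.0423). Of the 7 receptor genes tested, Tgfbr3, the betaglycan gene whose product binds inhibin and TGF-beta, was called with a log2 difference of 0.76 (adjusted p = 0.00511). It was at 30.3 to 33.9 TPM in the lower run and 47.7 to 58.1 TPM in the higher run, without overlap (5.7% of genes in that direction). Without M1 and M2, Tgfbr3 stayed called (0.66, adjusted p = 0.0441), and Acta2, Tagln, Nuak1 and Junb were not (adjusted p from 0.149 to 0.528). Leaving out M1 or M2 alone also ended these 4 calls (adjusted p from 0.0524 to 0.142). Junb was also not called without W1, W2, W3 or M4, Nuak1 without W1, W2, W4 or M4, and Tagln without M3 or M4 (adjusted p of at most 0.0840). The change of the genotype difference between the runs was called for list genes that included Cdkn1a (−0.78, limma, Benjamini-Hochberg adjusted p = 0.00203), Ccn2 (−0.85, adjusted p = 0.0134), Tll1 (−0.94, adjusted p = 0.00870) and Smurf1 (−0.45, adjusted p = 0.0390), the first 2 of these being response genes named after their values were seen. Without M1, Tll1 and Ccn2 were not called (adjusted p = 0.0546 and 0.0620), nor was Ccn2 without W1 (0.0608). Smurf1 was not called with the replicate block (adjusted p = 0.0540), and among the fits without a single culture it was called without M2 or M3 alone.

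On mm10, the genes lie at chr13:16011851-16031621 (Inhba, plus strand), chr1:119415465-119422248 (Inhbb, minus), chr10:128882295-128891718 (Gdf11, minus), chr13:114452290-114458951 (Fst, minus), chr16:37776873-37836514 (Fstl1, plus), chr10:79777272-79782630 (Fstl3, plus), chr15:101174067-101213684 (Acvr1b, plus), chr2:48814109-48903269 (Acvr2a, plus) and chr9:119402118-119434995 (Acvr2b, plus), per GENCODE release M21. Fstl3 overlaps Prss57 and Acvr2a overlaps Orc4, both on the opposite strand, and noncoding antisense genes overlap Inhba, Fst and Acvr2b. These overlaps are of whole gene spans, and exons were not compared. The libraries kept strand, but the strand setting of the counting is not known. Whether reads of these partners entered the values of the members is therefore unknown.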

How the data were processed

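RNA of 13 cultures was sequenced from directional libraries of total RNA, per the labels' protocols. The deposited tables hold TPM that the authors computed (column name in the file headers). The submitters' processing notes name mm10, and the aligner, counter and annotation are not stated in the sources used here. Each library's TPM summed to 1000000 over 25655 genes. TPM keep no depth, so no counting interval is given, and precision rests on the spread between cultures.

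Here TPM were transformed to log2(TPM + 1), and genes that reached 1 TPM in 6 libraries or more (4 in set 1, 2 in set 2) were tested with limma 3.58.1 (trend and robust empirical Bayes) in R 4.3.3, with Benjamini-Hochberg adjustment over all genes tested and calls at an adjusted p under 0.05. Log2 differences on this scale understate changes of low genes. The comparisons were the genotypes over both sets (set as covariate), in each set, their change between the sets, the runs of animal numbers in set 1 (genotype as covariate) and the change of the genotype difference between the runs. The fits were also run on simulated data, with an outcome not reported here. The simulated noise was drawn from the spread within run and genotype and left out differences between the runs. It therefore could not show how such differences affect the fits of set 1 and of both sets.

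The members, the gene lists and the marker lists were chosen with earlier results of these data known. The genes named were the 9 members, called list genes, up to 3 genes per list with the smallest p over both sets and between the runs, and the 5 genes most like each of the 3 most variable members; exceptions are named as such. Some results on list genes are not reported here. Keratinocyte markers (8) summed to 2.65 to 8.85 TPM and endothelial markers (6) to 2.97 to 4.10 TPM. Cultures of the same replicate number deviated together in set 1 (correlations 0.314, 0.236, 0.244 and 0.214, all over the limit of 0.1) and not in set 2 (−0.155 and 0.0138). By that limit the numbers counted as pairing cultures in set 1. Each such pair lies within 1 run. Cultures of different number in the same run correlated at 0.189 and 0.397 in the lower run and 0.0885 and 0.440 in the higher. The same-number values lay inside these ranges, so they show no pairing beyond the run. Because each block lies within a run, the larger count between the runs with the replicate block adds no support to those calls. The alternatives were other pseudocounts, filters and scalings, no robust step, a replicate block, covariates for the runs and for Y-linked genes, and leaving out single cultures or M1 and M2 together; this last, for the comparison of the runs, was added after seeing the data.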

Additional observations from a re-analysis of the deposited data

Results flagged for a closer look

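The 9 genes were examined in the 2 genotype groups of 4 cultures each in set 1, which made 18 groups, and a value far from the rest of its group was found in 3; chance gives about 1 in 20. Inhbb in W2, at 55.2 TPM, lay below the other 3 WT cultures of set 1, which were at 64.2 to 65.4 TPM. Acvr1b was also lowest in W2, at 12.6 TPM beside 15.5 to 15.6 TPM. Fstl1 in W4, at 1439.7 TPM, lay below the other 3 WT cultures, at 1527.9 to 1544.5 TPM.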

How the results depend on the processing

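No alternative called any of the 9 genes between the genotypes over both sets or in either set, and over both sets 0 genes of the whole table were called in all of them, including without each culture in turn (0 to 0). Acvr2b has no value with the 10 TPM filter, and over the other alternatives its difference over both sets stayed below 0, at −0.48 to −0.24, with adjusted p from 0.270 to 0.999. In set 1 the count of genes called was 1 with the replicate block, 1 with the runs as a covariate and 0 to 2 without single cultures (2 without M4). In set 2 it was 0 with no filter, 0 with the 10 TPM filter, 21 with the replicate block and 0 to 14 without single cultures (0 without W5 or W6, where the remaining WT culture is assumed to vary like the G234D cultures, 2 without M7 and 14 without M6). The change between the sets gave 0 to 1 without single cultures (1 without M5). Between the runs the count went from 850 to 269 with no filter, 2037 with the replicate block, 13 without M1 and M2 (added after seeing the data) and 36 (without M2) to 883 without single cultures; it was 120 without M1, 288 without W1, 480 without W3, 340 without M3 and 286 without M4. The split of these calls, 332 higher and 518 lower, was 419 and 403 with median-of-ratios scaling. The change of the genotype difference between the runs gave 139 with no filter and 189 with the replicate block, against 334, and 46 (without M1) to 674 (without M3) without single cultures, with 75, 69, 176 and 61 without W1, W2, W3 and W4. Between the runs with no filter, Gdf11 and Fstl3 had adjusted p of 0.0514 and 0.0510. Some differences changed sign. Over both sets, Inhbb was −0.026 with a covariate for Y-linked genes and −0.14 without M1 and M2, where Gdf11 was −0.063 and Fst −0.076. In set 2, Fst was −0.0054 with median-of-ratios scaling, −0.0060 with quantile normalization and −0.012 with the replicate block, where Fstl3 was −0.0088. Between the runs, Fstl1 was −0.033 with quantile normalization, and without M1 and M2 Inhbb was 0.11, Fst 0.048, Fstl1 −0.047 and Acvr2a −0.23. Without single cultures, Inhbb ranged from −0.045 to 0.12 and Fstl3 from −0.068 to 0.064 over both sets. In set 1, Inhbb ranged from −0.035 to 0.24, Fstl3 from −0.15 to 0.077 and Acvr1b from −0.089 to 0.014. In set 2, Fst ranged from −0.024 to 0.081, Fstl1 from −0.074 to 0.012 and Fstl3 from −0.0088 to 0.084. The change between the sets ranged from −0.19 to 0.092 for Gdf11 and −0.031 to 0.19 for Fstl3, the difference between the runs from −0.0060 to 0.066 for Fstl1 and −0.080 to 0.075 for Acvr2a, and the change between the runs from −0.18 to 0.095 for Acvr1b and −0.049 to 0.15 for Acvr2b. The cause of these changes was not tested. The replicate block ended no call of the 9 genes. Its blocks lie within the runs, so this adds no support to the calls between the runs. The 1 call the block added, for Inhbb, is given above. The scalings moved the median of all genes by less than 0.1. The unknown depth limits what can be said of Acvr2b, near 1 TPM.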
